A study of Homo sapiens with 12 samples.

Results

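The genes described here are 9 members of the MHC class I antigen presentation pathway, HLA-B, HLA-C, HLA-E, B2M, TAP1, TAP2, TAPBP, ERAP1 and NLRC5, of 19923 genes counted in the series. They were taken by gene name from a list of class I genes that was put together with earlier results of these data known, and the list does not hold every class I heavy chain gene. With DMSO, HLA-C had 1089 to 1200 reads per library in SK-N-BE2 and 2 in each NGP library. After STM2457 the heavy chain genes HLA-B and HLA-C were lower in SK-N-BE2 while the transactivator NLRC5 was higher in both lines, and B2M was higher in NGP and not called in SK-N-BE2.

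Class I molecules display short peptides from inside the cell to CD8 T cells. A heavy chain, encoded by an HLA gene, pairs with the light chain beta-2 microglobulin (B2M) in the endoplasmic reticulum. The transporter made of TAP1 and TAP2 brings peptides in from the cytosol, ERAP1 trims them, and tapasin (TAPBP) holds the empty heavy chain at the transporter until a peptide is bound. NLRC5 is the transactivator that drives class I promoters together with DNA-binding partners, and interferon and NF-kappaB signals act on many of the same promoters. Neuroblastoma is known for low class I expression.

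SK-N-BE2 and NGP are established human neuroblastoma cell lines with amplified MYCN. STM2457 is a small-molecule inhibitor of METTL3, the enzyme that writes N6-methyladenosine on messenger RNA. SK-N-BE2 cells were kept for 6 days with STM2457 at 12 µM or with DMSO, the solvent control, and NGP cells for 6 days with STM2457 at 1 µM or with DMSO. Each of the 4 groups had 3 replicates, and nothing in the labels says whether they were separate cultures, so p-values measure the spread between these libraries only. Each line stands for 1 genetic background.

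Library totals ran from 47242379 to 58159937 reads, and those of treated and control libraries overlapped in each line. A fragment could add 2 to a count, and 72.1% to 75.4% of counts from 1 to 20 were even, so 2 reads can be 1 fragment. Neuroblastoma markers summed to between 5257 and 6732 CPM (counts scaled to library size by TMM) in every group, and 7 of 8 reached 1 CPM in each. Markers of immune cells, which carry much class I, summed to 5.62 to 9.18 CPM over all libraries. PTPRC and CD3E, the defining markers of leukocytes and T cells, had 0 reads in the 6 NGP libraries, and MS4A1, a B cell marker, had 0 in all 12. Others were read: CD68 was the highest of the 9 markers, with group means of 3.84 to 6.27 CPM. In SK-N-BE2, PTPRC had 52 reads over the DMSO libraries and 184 over the STM2457 libraries, and CD14 had 230 and 117. LYZ had 87 reads in NGP with DMSO and 220 with STM2457.

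In the count files the genes lie on GRCh38. The HLA genes are HLA-B at chr6:31269491-31357188 (minus strand), HLA-C at chr6:31268749-31272130 (minus) and HLA-E at chr6:30489509-30494194 (plus). The transporter and loading genes are TAP1 at chr6:32845209-32853978, TAP2 at chr6:32821833-32838770 and TAPBP at chr6:33299694-33314387, all on the minus strand of the same MHC region. B2M is at chr15:44711487-44718877 (plus), ERAP1 at chr5:96760810-96808100 (minus) and NLRC5 at chr16:56989485-57083531 (plus). Counts covered all exons of each gene, untranslated parts included.

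The promoters are shown because these genes share named elements through which NLRC5, interferon and NF-kappaB signals are known to act. RefSeq promoters (GRCh38.p14) were found for 7 of the 9 genes, and HLA-E and NLRC5 had no entry. In the stretches below capitals mark matches, on either strand, to the X2 half-site TGACG followed after 18 to 24 bases by the Y box ATTGG, to the interferon element (GAAA, NN, GAAA, with N any base) and to the kappaB element (GGG, NN, TT, N, CC). Matches to the interferon element in 1 promoter can overlap.
HLA-B (chr6:31357251-31357361, minus strand): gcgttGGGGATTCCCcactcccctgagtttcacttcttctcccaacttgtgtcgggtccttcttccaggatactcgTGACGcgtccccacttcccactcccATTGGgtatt
HLA-C (chr6:31272163-31272202, minus strand): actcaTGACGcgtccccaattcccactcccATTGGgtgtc
B2M (chr15:44711368-44711477, plus strand): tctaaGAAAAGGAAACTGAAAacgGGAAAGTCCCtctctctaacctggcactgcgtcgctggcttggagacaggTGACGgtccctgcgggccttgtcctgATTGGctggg
TAP1 (chr6:32853762-32853843, minus strand): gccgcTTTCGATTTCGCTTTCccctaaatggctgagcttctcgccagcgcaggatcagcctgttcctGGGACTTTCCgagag
TAPBP (chr6:33314079-33314139, minus strand): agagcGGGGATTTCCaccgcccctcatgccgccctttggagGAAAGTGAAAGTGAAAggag

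The X2 and Y pair stood in the 250 bases before the start site of HLA-B, HLA-C and B2M, and in 0.29% of 34941 RefSeq promoters. Its spacing was set after the HLA-B and B2M sequences had been seen, so its presence there is a description. The interferon element was found before B2M, TAP1, TAP2 and TAPBP, against 3.02% of all promoters. The kappaB element was found before HLA-B, B2M, TAP1, TAPBP and ERAP1, against 5.05%. TAP1 and ERAP1 each had a second start site in the table, without a match to the interferon element, the kappaB element or the X2 and Y pair, so the matches are those of the first. A match gives letters and not a binding site. Only these exact letters were searched, so a promoter without a match can still hold a variant of the element. HLA-B and HLA-C, which fell in SK-N-BE2, share the X2 and Y pair with B2M, which was not called there. A link between the pair and the responses was not tested.

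With DMSO, the class I genes formed a graded series in SK-N-BE2 and were near 0 in NGP except B2M and ERAP1. On the scale of CPM divided by exon length (RPKM, mean ± SD, n = 3), B2M led in SK-N-BE2 at 40.9 ± 5.11, a level at the 95.6 percentile of all genes. HLA-C followed at 8.52 ± 0.325 RPKM and ERAP1 at 4.33 ± 0.610. These first 3 places did not overlap over libraries.

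Below them in SK-N-BE2 with DMSO came TAPBP at 1.57 ± 0.315 RPKM, HLA-B at 1.07 ± 0.441, NLRC5 at 0.790 ± 0.0352, HLA-E at 0.738 ± 0.193 and TAP1 at 0.492 ± 0.119. Every neighbouring pair among these 5 overlapped over libraries. TAP2 was last, at 0.158 ± 0.0228 RPKM, with all its libraries below those of TAP1. The light chain was thus read at a level above each heavy chain gene listed, and TAP2 at the lowest level. TAP1 was not set apart from HLA-E. For TAP2, 32.2% of the exon length is shared with another counted gene on its strand, where reads are lost, which lowers its RPKM.

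In NGP with DMSO, B2M was first at 9.54 ± 1.38 RPKM and ERAP1 next at 3.68 ± 0.819. The other 7 genes were at or under 0.0298 RPKM, and every neighbouring pair among them overlapped. With STM2457, NGP kept B2M first, at 17.6 ± 1.43 RPKM, ahead of ERAP1 at 1.58 ± 0.272 and NLRC5 at 0.0998 ± 0.0120.

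**Figure D1:**
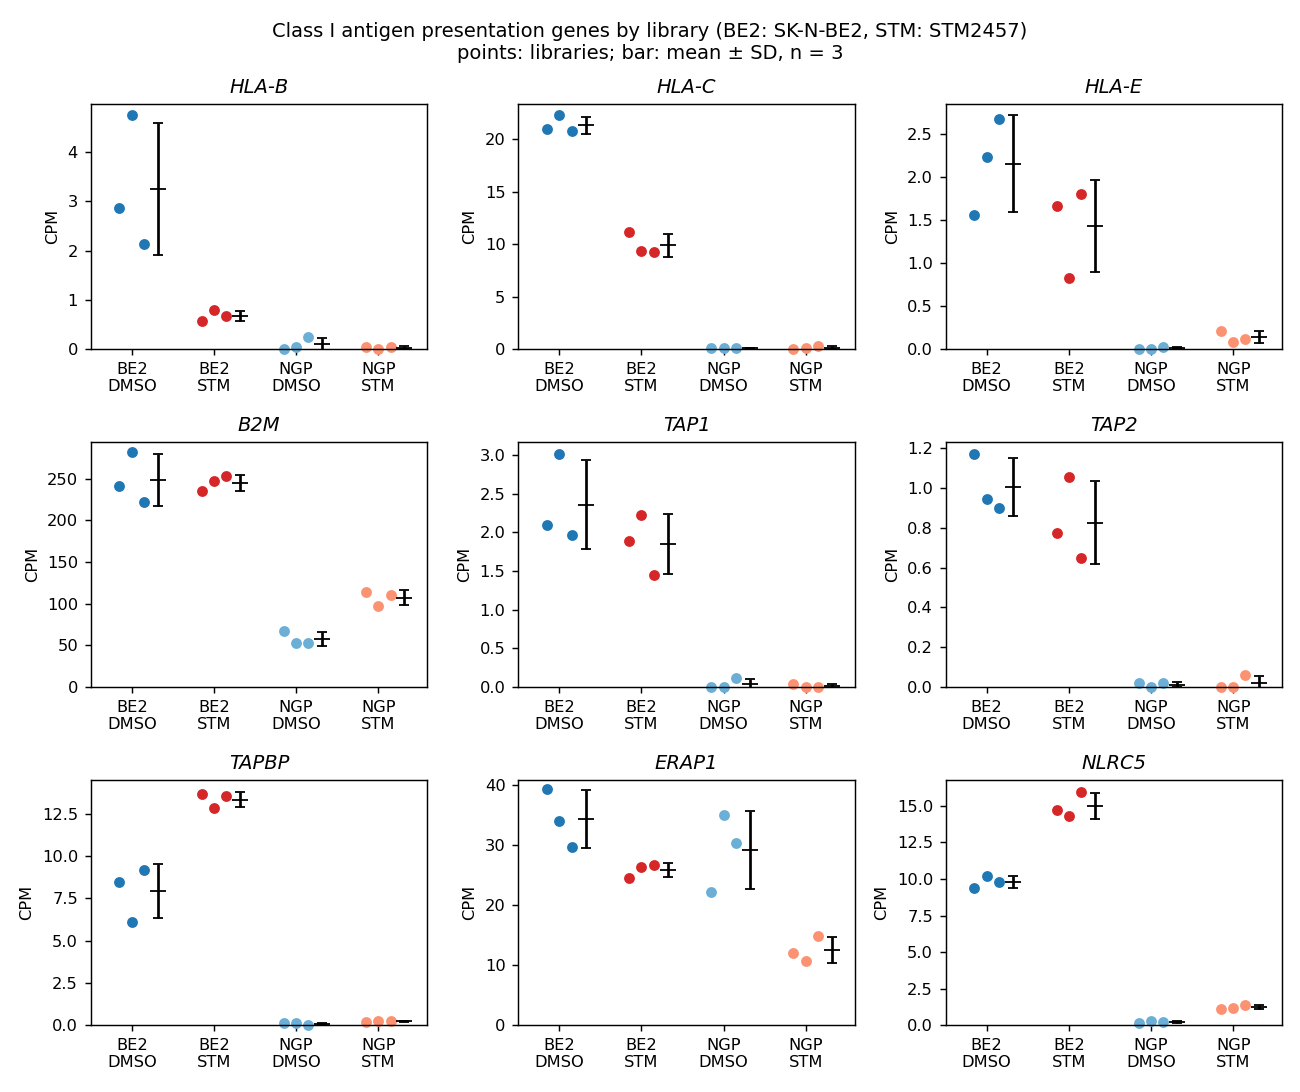
CPM of each class I gene (vertical axes, linear from 0) in the 12 libraries by group; points are libraries and the bar beside them is the mean ± SD of 3. Every gene but ERAP1 has all its SK-N-BE2 DMSO libraries above all NGP DMSO libraries, and B2M rises from 58.0 to 107 CPM in NGP.

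Set side by side with DMSO, a high ratio between the lines was that of the heavy chain HLA-C, which presents peptides to T cells and is also read by killer cell receptors. Its reads per library in replicates 1 to 3 were 1200, 1108 and 1089 in SK-N-BE2, against 2, 2 and 2 in NGP. The ratio of pooled CPM was 544 with an exact 95% counting interval of 250 to 1483, which overlaps those of HLA-E and TAP2. HLA-B had 164, 236 and 112 reads in SK-N-BE2 against 0, 2 and 12 in NGP, a ratio of 35.1 (20.8 to 64.7). These intervals cover counting error only and are too narrow where a fragment gave 2 reads.

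HLA-E, the heavy chain that shows leader peptides of other class I chains to natural killer cells, had 89, 111 and 140 reads in SK-N-BE2, against 0, 0 and 1 in NGP. The ratio was 327, with a counting interval of 58.2 to 12940 because NGP held 1 read in all. For TAP2, 67, 47 and 47 reads stood against 1, 0 and 1, a ratio of 77.3 (21.1 to 644). All 3 heavy chains and both transporter genes were thus at the edge of detection in NGP, where a count of 0 over the 3 DMSO libraries allows 0.0196 CPM.

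TAP1 had 120, 150 and 103 reads in SK-N-BE2 against 0, 0 and 6 in NGP, a ratio of 59.7 (27.2 to 164). TAPBP had 484, 304 and 479 reads against 6, 6 and 2, a ratio of 86.9 (51.6 to 160). NLRC5 had 535, 508 and 512 reads against 8, 16 and 12, a ratio of 41.5 (29.8 to 59.5). The transactivator and the tapasin gene thus had low reads in the same line as the heavy chains.

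B2M, which also pairs with class I-like chains, differed less, with 241, 282 and 222 CPM in SK-N-BE2 against 67.7, 53.2 and 53.1 in NGP. Its ratio was 4.28 (counting interval 4.18 to 4.38), with an SE of 0.12 on the log2 scale (edgeR BH-adjusted p = 1.09e-09, where BH stands for Benjamini-Hochberg over all genes tested). ERAP1 had 39.4, 34.0 and 29.8 CPM against 22.2, 35.1 and 30.5, and these libraries overlapped. The log2 difference, SK-N-BE2 minus NGP, of ERAP1 was 0.23 (SE 0.16, 95% interval -0.12 to 0.59, edgeR BH-adjusted p = 0.213).

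**Figure D2:**
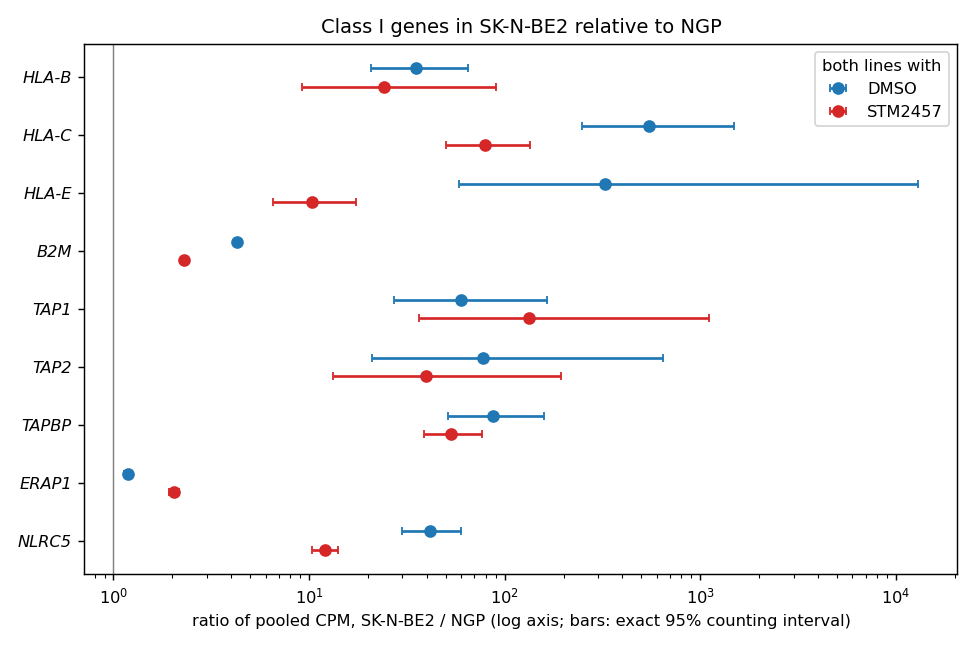
Ratio of pooled CPM in SK-N-BE2 to NGP for each class I gene (horizontal log axis), with DMSO in both lines and with STM2457 in both; bars are exact 95% counting intervals. The ratio for ERAP1 is nearest 1, at 1.18 with DMSO, and that for HLA-C is 544 with DMSO and 79.5 with STM2457.

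By edgeR, 8 of the 9 genes were called higher in SK-N-BE2 with DMSO and 0 lower, where 35.7% of the 14731 genes tested were called higher and 35.4% lower. HLA-B, HLA-C, HLA-E, TAP1 and TAP2 passed the minimum count through the SK-N-BE2 libraries alone and so had to differ. TAPBP and NLRC5 also passed it through their NGP libraries with STM2457. Nothing is read from the count of 8 or from the next 2 counts. Libraries of the 2 DMSO groups did not overlap for 8 of 9 genes, all with SK-N-BE2 above, where 68.9% of genes tested did not overlap, 35.0% above and 33.9% below. With STM2457 in both lines they did not overlap for 9 of 9, all above, where 78.2% of genes did not, 39.2% above and 39.0% below. Without NGP DMSO replicate 3, which held 12 of the 14 HLA-B reads and all TAP1 reads of its group, the fitted log2 differences moved from 5.12 to 7.20 for HLA-B, from 7.91 to 9.79 for HLA-E and from 5.83 to 9.92 for TAP1. The file headers place the libraries of each line in 1 folder, which the other line does not share. Any batch that went with these folders, such as a sequencing run, cannot be told apart from the line. With DMSO, 4 of 5 stromal and endothelial markers were also called higher in SK-N-BE2 and 1, COL1A1, lower. The endothelial markers were CDH5 at 6.43 ± 1.88 CPM against 0.0132 ± 0.0229, PECAM1 at 1.67 ± 0.116 against 0 reads, and VWF at 1.20 ± 0.0774 against 0.0130 ± 0.0225. Of the immune markers, 2 of 5 tested were called higher and 2 lower. The part of these markers in the class I difference was not tested.

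Sequence similarity bears on these counts. Of all 75-base words in the transcripts of HLA-B, 26.3% also occur in another gene, as do 1951 of 10846 for TAP2, against 1.3% for HLA-C, 1.9% for HLA-E and 0 for B2M, NLRC5 and ERAP1. Reads that map to several places were not counted. Whether the reference held alternate MHC haplotypes, to which reads of MHC genes can also map, is not given in the sources used here, so a count at or near 0 in this region, its limit included, speaks of counted reads and not of RNA. HLA genes also differ between people, and how far the alleles of each line align to the reference was not tested. In the same MHC stretch (chr6:30489509-33314387), 38 of 111 other genes reached 10 CPM in SK-N-BE2 with DMSO and also 38 in NGP. That was 34.2% in each line, against 48.2% of all genes in SK-N-BE2 and 47.8% in NGP. Of the 66 tested, 22 were called higher in SK-N-BE2 and 16 lower, with a median log2 difference of 0.13. This stretch was chosen after values had been seen, as was its gene BAG6, at 240 ± 22.5 CPM with DMSO in SK-N-BE2, against 299 ± 14.3 for NGP.

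STM2457 moved the class I genes in different directions within SK-N-BE2. HLA-B was at 0.209 of its DMSO level (counting interval 0.168 to 0.258) and HLA-C at 0.465 (0.438 to 0.494). TAPBP and NLRC5 rose, to 1.68 and 1.53 times their DMSO levels, and the peptide trimmer ERAP1 fell to 0.747. HLA-E, B2M, TAP1 and TAP2 were not called. In all, 2 of 9 genes were called higher and 3 lower, where edgeR called 54.7% of 14013 genes, 26.9% higher and 27.8% lower. A count of 5 in 9 lies near this background. The median log2 fold change was -0.39 over the 9 genes and -0.02 over all genes tested.

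In NGP, 4 of the 9 genes had enough reads for the test. B2M rose 1.85-fold and NLRC5 5.27-fold, ERAP1 fell to 0.432 of its DMSO level, and TAPBP was not called. EdgeR called 41.7% of 13610 genes in this line, 19.4% higher and 22.2% lower. NLRC5 and TAPBP passed the minimum count mainly through their STM2457 libraries, so no count over the tested genes is offered as support. Fewer cells of a type and less RNA per cell cannot be told apart in these bulk libraries.

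**Figure D3:**
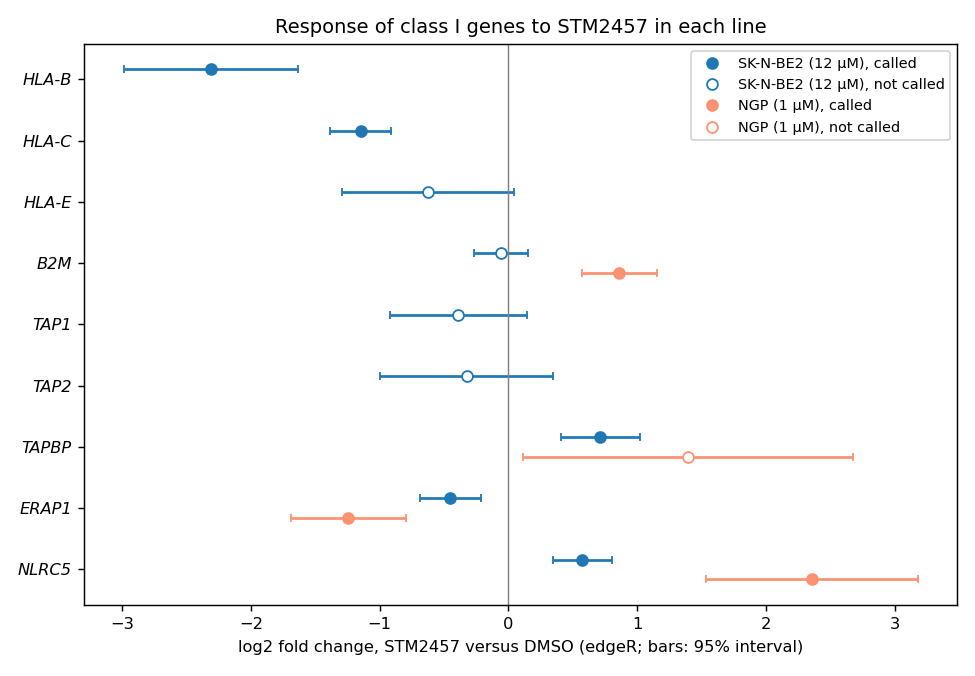
The log2 fold change with STM2457 against DMSO (horizontal axis) of each class I gene in SK-N-BE2 and, for the 4 genes tested, in NGP; bars are 95% intervals, filled points passed an adjusted p of 0.05 and open points did not. HLA-B is lowest at -2.31 in SK-N-BE2 and NLRC5 highest at 2.36 in NGP.

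Among the heavy chains in SK-N-BE2, HLA-B had 2.87, 4.75 and 2.14 CPM with DMSO and 0.572, 0.781 and 0.666 with STM2457. All treated libraries lay below all controls, and replicate 2 of the controls was the highest. The log2 fold change was -2.31 (SE 0.31, edgeR BH-adjusted p = 4.06e-05). The gene shares 17.8% of its exon length with a pseudogene on the other strand, and the counting set no strand. In NGP, HLA-B had 14 reads over 3 DMSO libraries and 4 over 3 STM2457 libraries, too few to test.

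HLA-C in SK-N-BE2 had 21.0, 22.3 and 20.8 CPM with DMSO and 11.2, 9.34 and 9.21 with STM2457. The groups lay far apart, with means of 21.4 and 9.91 CPM against SDs of 0.814 and 1.10. The log2 fold change was -1.15 (SE 0.11, edgeR BH-adjusted p = 1.87e-06). In NGP it had 2, 2 and 2 reads with DMSO and 0, 4 and 14 with STM2457, and the groups overlapped.

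HLA-E in SK-N-BE2 had 1.56, 2.23 and 2.68 CPM with DMSO and 1.66, 0.820 and 1.81 with STM2457, so its groups overlapped. The log2 fold change was -0.62 (SE 0.31, 95% interval -1.29 to 0.04, edgeR BH-adjusted p = 0.104). Without SK-N-BE2 DMSO replicate 1, the lowest control, it was -0.82 and passed at an adjusted p of 0.0473. In NGP the reads were 0, 0 and 1 with DMSO and 10, 4 and 6 with STM2457, and these did not overlap. The pooled ratio in NGP was 21.2 with a counting interval of 3.39 to 879. The line's own test left HLA-E out, while it was called with no minimum count (edgeR BH-adjusted p = 0.0394) and in a fit of all 12 libraries (adjusted p = 0.00496).

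The light chain gene B2M was at 241, 282 and 222 CPM in SK-N-BE2 with DMSO and at 235, 247 and 254 with STM2457. The groups overlapped, and the log2 fold change was -0.06 (SE 0.10, 95% interval -0.27 to 0.15, edgeR BH-adjusted p = 0.645). In NGP it was at 67.7, 53.2 and 53.1 CPM with DMSO and at 114, 97.4 and 110 with STM2457. All treated libraries were above all controls, and the log2 fold change was 0.86 (SE 0.13, edgeR BH-adjusted p = 0.00107). The NGP level with STM2457 remained below every SK-N-BE2 library.

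TAP1 and TAP2 together form the peptide channel. TAP1 in SK-N-BE2 had 2.098, 3.02 and 1.97 CPM with DMSO and 1.88, 2.23 and 1.45 with STM2457, overlapping, with a log2 fold change of -0.39 (SE 0.25, 95% interval -0.92 to 0.15, edgeR BH-adjusted p = 0.203). TAP2 had 1.17, 0.946 and 0.899 CPM against 0.776, 1.06 and 0.647, also overlapping, with -0.32 (SE 0.31, 95% interval -0.99 to 0.35, adjusted p = 0.399). TAP2 shares 32.2% of its exon length with another counted gene on its own strand, where reads become ambiguous and are lost, and TAP1 shares 12.0% with an antisense RNA. In NGP, TAP1 had 6 reads with DMSO and 2 with STM2457, and TAP2 had 2 and 3.

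TAPBP, the tapasin gene, had 8.46, 6.12 and 9.16 CPM in SK-N-BE2 with DMSO and 13.7, 12.8 and 13.5 with STM2457. Each treated library exceeded each control, and the log2 fold change was 0.71 (SE 0.14, edgeR BH-adjusted p = 0.000803). In NGP the reads were 6, 6 and 2 with DMSO and 10, 12 and 14 with STM2457, without overlap at a low level. The log2 fold change there was 1.39 (SE 0.56, 95% interval 0.11 to 2.67, edgeR BH-adjusted p = 0.0776), and it passed in the fit of all 12 libraries (adjusted p = 0.0105). Since 27.6% of the TAPBP exon length overlaps an RNA on the other strand, reads of the pair cannot be told apart.

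ERAP1, the aminopeptidase that trims peptides to class I length, was the 1 member whose DMSO libraries overlapped between the lines, and it fell in both. In SK-N-BE2 it had 39.4, 34.0 and 29.8 CPM with DMSO and 24.5, 26.4 and 26.7 with STM2457, with a log2 fold change of -0.45 (SE 0.11, edgeR BH-adjusted p = 0.00322). The treated libraries were all lower, but in the fit of all 12 libraries the value was -0.41 and did not pass (adjusted p = 0.0549). In NGP it had 22.2, 35.1 and 30.5 CPM with DMSO and 12.1, 10.7 and 14.95 with STM2457, with -1.24 (SE 0.20, adjusted p = 0.00145). DMSO replicate 1 was the lowest NGP control and still lay above every treated library.

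NLRC5, the transactivator, had 9.35, 10.2 and 9.79 CPM in SK-N-BE2 with DMSO and 14.7, 14.3 and 15.95 with STM2457. The groups were well separated, and the log2 fold change was 0.58 (SE 0.11, edgeR BH-adjusted p = 0.000519). In NGP the reads were 8, 16 and 12 with DMSO and 52, 56 and 71 with STM2457, or 0.235 ± 0.0771 and 1.24 ± 0.149 CPM (SD, n = 3). Its log2 fold change there was 2.36 (SE 0.36, edgeR BH-adjusted p = 0.00126), and the treated level stayed below that of every SK-N-BE2 library. In SK-N-BE2 the transactivator was higher in the same libraries in which HLA-B and HLA-C were lower. Whether NLRC5 acted on these genes was not tested.

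Over the 9 genes, libraries of the 2 treatments did not overlap for 5 in SK-N-BE2 (2 above, 3 below), against 62.2% of genes tested, 33.2% above and 29.0% below. In NGP they did not overlap for 5 (4 above, 1 below). The share over the genes tested in NGP was 54.7%, 28.4% above and 26.2% below. The 4 above were HLA-E, B2M, TAPBP and NLRC5. HLA-E was not among the genes tested in NGP, and TAPBP and NLRC5 passed the minimum count mainly through their STM2457 libraries. Nothing is thus read from the NGP count against that share. Stromal marker genes moved in the same libraries: their sum was 52.2 to 63.3 CPM in NGP with DMSO and 258 to 281 with STM2457, of which COL1A1 went from 29.8 ± 3.45 to 124 ± 4.84 CPM and PDGFRB from 29.6 ± 4.002 to 141 ± 8.56. These were the 2 of 5 stromal and endothelial markers with enough reads to test in NGP, and both were called higher. The endothelial marker PECAM1 had 0 reads in both NGP groups. In SK-N-BE2 the sum was 46.7 to 61.5 CPM with DMSO and 71.4 to 76.9 with STM2457, with 2 of 5 called higher and 2 lower. Of 9 immune markers, 3 were tested in each line. In SK-N-BE2 PTPRC rose from 0.328 ± 0.0685 to 1.17 ± 0.153 CPM and CD14 fell from 1.44 ± 0.220 to 0.743 ± 0.118. In NGP LYZ rose from 0.568 ± 0.376 to 1.53 ± 0.214 CPM and NKG7 from 0.125 ± 0.0508 to 0.375 ± 0.130. The part of these markers in the class I values was not tested.

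The responses of the lines were then compared as the log2 fold change in SK-N-BE2 minus that in NGP. Line, dose (12 against 1 µM) and any batch that went with the line cannot be told apart in this difference. It was called for 5 of 9 genes, 4 of them lower in SK-N-BE2 and 1 higher, where edgeR called 30.9% of 14731 genes, 13.9% lower and 17.0% higher. HLA-B, HLA-C, HLA-E, TAP1 and TAP2 passed the minimum count of this fit through the SK-N-BE2 libraries alone, so nothing is read from the count of 5. The difference of responses was -0.91 for B2M (SE 0.16, adjusted p = 0.000850) and -1.77 for NLRC5 (SE 0.27, adjusted p = 0.000278). For ERAP1 it was 0.80 (SE 0.23, adjusted p = 0.0180), since the fall was smaller in SK-N-BE2, and without SK-N-BE2 DMSO replicate 3 it was 0.69 and did not pass (adjusted p = 0.0613).

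For HLA-C the difference was -2.71 (SE 0.84, edgeR BH-adjusted p = 0.0252), but it rests on 24 reads in NGP. Without NGP STM2457 replicate 3, which held 14 of them, it was -1.22 (adjusted p = 0.363), and without NGP DMSO replicate 3 it was -2.71 (adjusted p = 0.0552). HLA-E gave -4.56 (SE 1.07, adjusted p = 0.00525) on 21 NGP reads, and -6.44 without NGP DMSO replicate 3, the library with the 1 control read. HLA-B at -0.63 (adjusted p = 0.811), TAP1 at 1.00 (0.636), TAP2 at -0.86 (0.682) and TAPBP at -0.67 (0.275) were not called.

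The immunoproteasome cuts peptides that fit class I grooves, and PA28 is its activator. In SK-N-BE2, 3 of 4 tested genes of this list fell with STM2457 and 0 rose, where 27.8% of all genes tested were called lower, among them the PA28 subunit PSME1 at -0.44 (SE 0.10, edgeR BH-adjusted p = 0.00213) and the catalytic subunit PSMB8 at -0.43 (SE 0.16, adjusted p = 0.0350), of whose exon length 17.3% overlaps an antisense RNA. In NGP, PSME1 rose by 0.81 (SE 0.20, adjusted p = 0.0117), a call lost without NGP STM2457 replicate 1, and the other 2 tested were not called. PSMB8 and PSMB9 had 0 reads in all 6 NGP libraries and 939 and 39 reads over the 3 SK-N-BE2 DMSO libraries. Of the constitutive catalytic subunits, PSMB5 rose by 0.62 in SK-N-BE2 (SE 0.12, adjusted p = 0.000548) and PSMB7 changed by -0.23 (adjusted p = 0.0344), a call lost without SK-N-BE2 DMSO replicate 2 or any 1 STM2457 library. None of the 3 was called in NGP by edgeR or DESeq2, 0 had an unadjusted p under 0.05, and without NGP DMSO replicate 1 there were 2 called higher.

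Chaperones and other peptidases of the class I route split in both lines, with 3 higher and 3 lower of 10 in SK-N-BE2 and 2 higher and 1 lower of 10 in NGP. Among all genes tested, edgeR called 26.9% higher and 27.8% lower for SK-N-BE2. The NGP shares were 19.4% and 22.2%, so the split is not read as a property of this list. Calnexin (CANX), which folds free heavy chains, fell by 0.62 on the log2 scale in SK-N-BE2 (SE 0.09, edgeR BH-adjusted p = 7.93e-05). TAPBPL, a tapasin relative that edits peptides, fell by 0.88 there (SE 0.14, adjusted p = 0.000156), with 10.6% of its exon length shared with a gene on the other strand. Calreticulin (CALR), a part of the loading complex, rose by 1.04 in NGP (SE 0.12, adjusted p = 0.000278), and LNPEP, a trimming enzyme of endosomes, fell by 1.56 (SE 0.20, adjusted p = 0.000521). The count lower in NGP was 2 without NGP DMSO replicate 1.

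Other ligands of immune receptors were lower where they were called. ULBP1, a stress-induced ligand of the killer cell receptor NKG2D, went from 30.4 ± 2.94 to 1.07 ± 0.430 CPM in SK-N-BE2, a log2 fold change of -4.86 (SE 0.20, edgeR BH-adjusted p = 1.04e-09). In NGP it went from 5.92 ± 1.25 to 0.626 ± 0.0910 CPM, or -3.27 (SE 0.25, adjusted p = 4.01e-05). ULBP3 fell by 1.13 in SK-N-BE2 (SE 0.18, adjusted p = 0.000142), and in all 2 of 4 tested NKG2D ligands fell in SK-N-BE2 and 1 of 2 tested for NGP. Over all genes tested, 27.8% were called lower in SK-N-BE2 and 22.2% in NGP. MICA had 0 reads in all 12 libraries. This allows 0.0188 to 0.0208 CPM of counted reads over a group, and more where a fragment gave 2 reads. The limit on MHC genes given above holds here too.

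Among class I-like heavy chains, 3 of 4 tested fell in SK-N-BE2, where 54.7% of all genes tested were called and 27.8% lower. AZGP1, a soluble class I-like protein, fell by 2.73 on the log2 scale (SE 0.12, edgeR BH-adjusted p = 2.34e-09), and MR1, which presents vitamin metabolites, fell by 1.14 (SE 0.22, adjusted p = 0.000639). The third was under 1 CPM. In NGP 1 of 2 was called, again AZGP1 at -2.02 (adjusted p = 0.0468), at 0.392 CPM with DMSO and named after its value was seen, and that call was lost when any 1 of the 6 libraries was left out. Of 10 class II genes, the 3 tested for SK-N-BE2 and the 2 tested for NGP were not called by edgeR. At an unadjusted p under 0.05 there were 0 in SK-N-BE2 and 1 in NGP, DESeq2 called 0 and 1, and edgeR called 1 in NGP without DMSO replicate 2.

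The DNA-binding partners of NLRC5 (RFX, NF-Y and CREB family genes) split as well, with 1 higher and 4 lower of 8 in SK-N-BE2 and 2 higher and 3 lower of 8 in NGP. The background shares for SK-N-BE2 were 26.9% of genes called higher and 27.8% lower. For NGP they were 19.4% and 22.2%, and with 8 genes nothing is read from the counts. RFX5, a subunit of the factor that binds the X box, rose by 0.69 in SK-N-BE2 (SE 0.08, edgeR BH-adjusted p = 9.15e-06). RFXANK, another subunit, fell by 0.70 (SE 0.10, adjusted p = 9.22e-05), with 14.5% of its exon length shared with a gene on the other strand. Of the NF-Y subunits, which bind the Y box, NFYA rose by 1.30 in NGP (SE 0.17, adjusted p = 0.000650) and NFYC fell by 0.56 (SE 0.09, adjusted p = 0.00147). The 4 lower in SK-N-BE2 became 2 without STM2457 replicate 1 or 3.

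Interferon signalling genes did not move one way. Of the interferon-gamma list, 3 of 8 rose and 2 fell in SK-N-BE2, and 2 of 8 rose and 2 fell in NGP. Beside these counts, 26.9% of all genes tested for SK-N-BE2 were called higher and 27.8% lower. The NGP background was 19.4% higher with 22.2% lower, so the mixed directions are not read as special to this list. The receptor chain IFNGR1 fell by 0.57 in SK-N-BE2 (SE 0.10, edgeR BH-adjusted p = 0.000274) and by 0.84 in NGP (SE 0.11, adjusted p = 0.000602). IRF1, a transcription factor of class I promoters, fell by 2.46 (SE 0.20, adjusted p = 5.06e-07) in SK-N-BE2 and fell by 2.74 in NGP (SE 0.20, adjusted p = 3.23e-05), with 22.1% of its exon length under an antisense RNA. Leaving out single NGP libraries gave 0 to 3 genes higher in NGP, with 0 without STM2457 replicate 1 or 3 and 1 without DMSO replicate 2 or STM2457 replicate 2.

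Of 7 type I interferon signalling genes, 1 rose and 2 fell in SK-N-BE2 and 3 rose in NGP. Over all genes tested, 26.9% were called higher and 27.8% lower in SK-N-BE2, and 19.4% higher in NGP. IRF7 fell by 1.33 in SK-N-BE2 (SE 0.32, edgeR BH-adjusted p = 0.00288) and IRF3 rose by 0.58 (SE 0.11, adjusted p = 0.000717), the latter sharing 19.3% of its exon length with a gene on the other strand. STAT2, which carries the interferon signal to the nucleus, rose by 1.20 in NGP (SE 0.11, adjusted p = 9.40e-05). IRF9, its partner, rose by 1.13 (SE 0.39, adjusted p = 0.0469), with 42.2% of its exon length shared with another counted gene. In SK-N-BE2 the count higher was 2 without DMSO replicate 1, and the count lower was 1 without any 1 library other than DMSO replicate 1. In NGP 1 gene was called lower without STM2457 replicate 1.

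Among NF-kappaB subunits, 1 of 5 rose and 3 fell in SK-N-BE2, where RELB fell by 0.86 (SE 0.27, edgeR BH-adjusted p = 0.0156) and NFKB2 by 0.65 (SE 0.13, adjusted p = 0.00109). The 3 lower became 1 without DMSO replicate 3 or STM2457 replicate 2. In NGP, RELA fell by 0.42 (SE 0.09, adjusted p = 0.00786) and NFKB1 by 0.33 (SE 0.11, adjusted p = 0.0449). These 2 became 1 when any library but DMSO replicate 1 was left out, and 1 gene was called higher without that replicate. Genes called lower made up 27.8% of those tested for SK-N-BE2, with 26.9% higher. The matching NGP shares were 22.2% lower with 19.4% higher, and with 5 subunits nothing is read from these counts.

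PRC2, a complex that methylates histone H3, is known to silence class I genes in some tumours. With DMSO all 6 of its listed genes were called lower in SK-N-BE2 than in NGP, against 35.4% of genes tested. Their median log2 difference was -0.69, and the count called lower ran from 2 to 6 over the alternative settings. The part of PRC2 in the class I levels was not tested. With STM2457, 4 of 6 rose and 1 fell in SK-N-BE2, with the catalytic subunit EZH2 at 0.52 (SE 0.09, edgeR BH-adjusted p = 0.000246) and RBBP7 at 0.58 (SE 0.08, adjusted p = 2.94e-05). Over all genes tested, 26.9% were called higher and 27.8% lower in SK-N-BE2, and 19.4% higher in NGP. In NGP, RBBP4 rose by 0.35 (SE 0.12, adjusted p = 0.0401), with 22.8% of its exon length shared with a gene on the other strand. That call was lost without any 1 of the STM2457 libraries, and 4 genes were called higher without DMSO replicate 1.

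**Figure D4:**
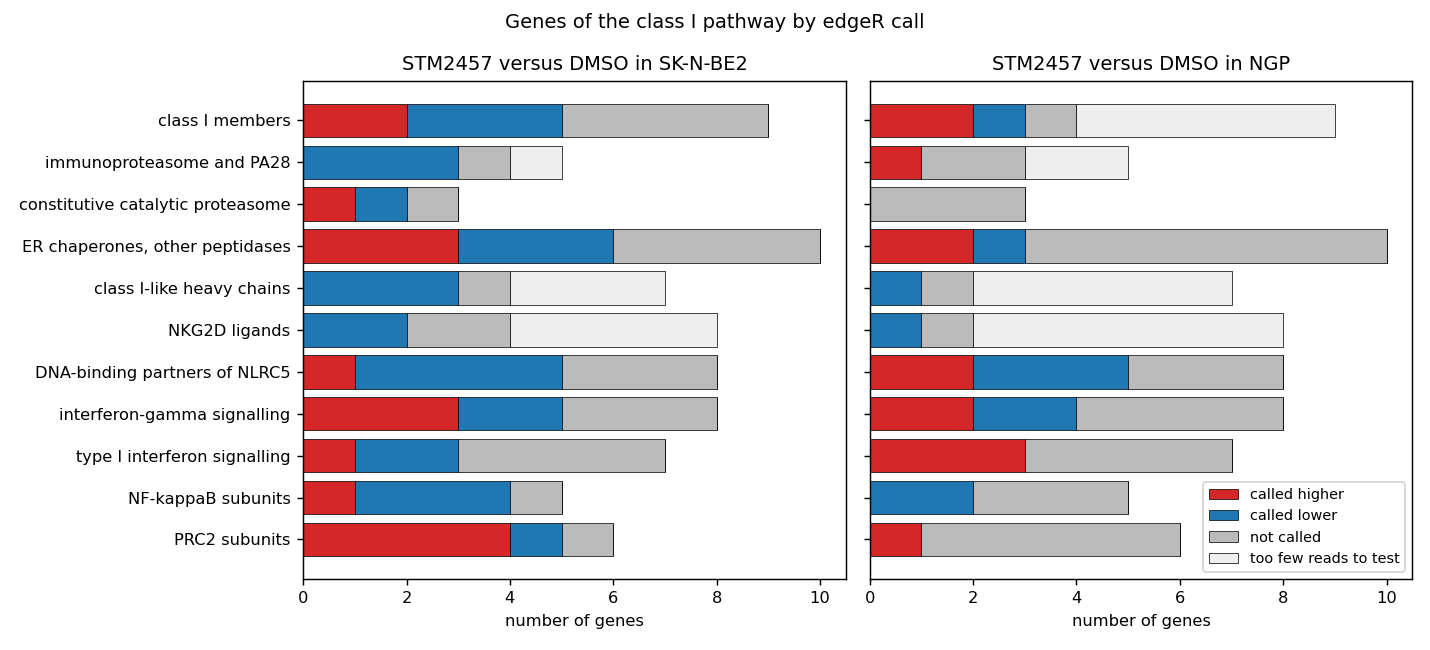
Number of genes (horizontal axis) in each list of the class I pathway that edgeR called higher, called lower, did not call or could not test with STM2457, in SK-N-BE2 (left) and NGP (right). In SK-N-BE2 the class I members hold 2 genes called higher and 3 lower, and in NGP 5 of the 9 could not be tested.

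Genes were also ranked by how closely their log2 CPM followed a member over the 12 libraries, among 13322 genes. These correlations are descriptions over libraries that fall into 2 lines and carry no p. Nearest to HLA-B were DCUN1D3 and SRGAP2C (Pearson r 0.984 each) and NCEH1 (0.982), with 0.918, 0.919 and 0.907 after the line means were removed. Nearest to B2M were DCPS (0.993), NQO1 (0.992) and HEY1 (0.991), with 0.970, 0.960 and 0.949. Nearest to NLRC5 were PTGER2 (0.996), GEM (0.995) and FUT11 (0.994), with 0.985, 0.976 and 0.962.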

How the data were processed

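RNA was sequenced from 12 libraries of 4 groups. Per the file headers, the authors deposited whole-number counts of reads per gene, made with featureCounts 2.0.5 on exons of protein-coding genes of GENCODE 33 (GRCh38), in paired mode, with no strand option, without multi-mapping reads and not normalized. The exon lengths deposited beside them gave RPKM. The submitters' processing notes also name FastQC 0.11.5, Trimmomatic 0.36, HISAT2 2.1.0 and Subread 1.5.3, with no order.

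EdgeR 4.0.16 (R 4.3.3) tested each line on its own 6 libraries, and the difference of responses and the DMSO groups on all 12, keeping genes by filterByExpr at a minimum count of 10. Libraries were scaled by TMM, the quasi-likelihood test was used, and p-values were adjusted by Benjamini-Hochberg over every gene tested (threshold 0.05). A standard error is the log2 fold change divided by the root of F. The scripts were tested on simulated data. The members and lists were chosen with earlier results of these data known. Named beside the members were, per list and line, up to 2 called genes with the largest change and at least 1 CPM, and 3 genes most like HLA-B, B2M and NLRC5. Alternatives were other scalings, filters, a fold minimum, halved counts, DESeq2 1.42.0, a joint fit, a replicate block and leaving out each library. Depth limits genes of a few reads, and 3 replicates limit the rest.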

Additional observations from a re-analysis of the deposited data

Results flagged for a closer look

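For 5 of the 9 class I genes the response to STM2457 differed between the lines by edgeR's test of the difference itself (SK-N-BE2 minus NGP, log2). Over all 14731 genes tested, 30.9% were called. HLA-C and HLA-E passed the minimum count through the SK-N-BE2 libraries alone, so the count of 5 is not offered as support. The difference was -0.91 for B2M and -1.77 for NLRC5, both higher with STM2457 in 3 of 3 NGP libraries. It was 0.80 for ERAP1, which fell in both lines. It was -2.71 for HLA-C, on 24 reads in NGP, and -4.56 for HLA-E, on 21. The call for HLA-C was lost without NGP STM2457 replicate 3 (-1.22) or NGP DMSO replicate 3, and that for ERAP1 without SK-N-BE2 DMSO replicate 3 (0.69). Line, dose and any batch that went with the line cannot be told apart in any of them.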

How the results depend on the processing

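Over all alternatives, 505 values of single class I genes kept their direction and side of the threshold, 4 lost a call, 2 gained one and 3 turned direction. Those that turned were not called in the reported fits: B2M in SK-N-BE2 ran from -0.14 to 0.05 when single libraries were left out (0.0501 without SK-N-BE2 DMSO replicate 2), and the difference of responses from -3.09 to 3.75 for TAP1 and from -1.38 to 2.38 for TAP2. Requiring an absolute log2 change of at least 1 left 1808 genes and 2 class I genes in SK-N-BE2, 1903 genes in NGP, 1930 genes and 3 class I genes for the difference of responses, and 5574 genes between the DMSO groups. A joint fit of the 12 libraries called 5 class I genes in NGP, with HLA-E and TAPBP added. Requiring a mean of 1 CPM over all libraries left 5 class I genes called between the DMSO groups, by testing fewer genes. Leaving out single libraries gave 6497 to 7849 genes in SK-N-BE2 and 3816 to 7897 in NGP. Of 1540 counts of other lists, 150 moved by over 1.5 times. Replicate numbers did not pair the libraries (r of same-numbered deviations -0.14 to 0.14). With the replicate number as a block, the pairing gave 7522 genes with 5 class I genes for SK-N-BE2, 5026 with 3 for NGP, 4025 with 5 for the difference, and 10147 with 8 between the DMSO groups. HLA-B, HLA-C, TAP1 and TAP2 had too few reads in NGP for the line test and were not called without the minimum count or in the joint fit, so a response was not detectable at this depth.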
